A study of Mus musculus with 20 samples.

Results

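CD8+ T cells given IL-2 for 90 min were compared with CD8+ T cells that had received no cytokine. The comparison was defined by the sample labels alone and holds 2 of the 20 libraries of the series, 1 library of cells given IL-2 at 200 nM for 90 min and 1 library of unstimulated cells taken at 0 h. The CD8+ T cells came from the spleen and lymph nodes of mice that the methods name as C57BL/6J and the sample records as C57BL/6N, and were enriched with a magnetic kit and not sorted further. The strains are listed as female, and the age of the mice and how many were pooled are not given in the sources used here. The IL-2 was a human protein fused to mouse serum albumin. IL-2-REH, a partial agonist of the same receptor with weakened binding to the shared γ chain, was given to CD8+ T cells at the same dose, and 3 further CD8+ libraries (IL-2-REH at 90 min, IL-2 at 4 hr, IL-2-REH at 4 hr) are given here side by side with the pair. The other 15 libraries are Tregs, the CD4+ T cells that express Foxp3, sorted by GFP from B6-Foxp3EGFP mice.

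IL-2 binds a receptor made of IL-2Rβ and the shared γ chain, to which IL-2Rα (CD25) adds affinity. The chains carry the kinases JAK1 and JAK3, which phosphorylate STAT5, and phosphorylated STAT5 turns on a set of early target genes, among them the feedback inhibitors of the SOCS family. The receptor also feeds the MAPK and PI3K pathways, and IL-2 is known to drive growth, survival and cytotoxic function of CD8+ T cells.

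Each value is an RPKM, that is, the reads on the exons of a transcript divided by the length of those exons and by the depth of the library. Ratios are log2 ratios of RPKM + 1, IL-2 at 90 min over unstimulated, unless another quantity is named. Of 23992 gene symbols in the files, 10021 reached 1 RPKM on average across the 5 CD8+ libraries and were compared. The unstimulated library had 40598133 reads on genes and the IL-2 library 45189835, and the 5 CD8+ libraries ranged from 38201667 to 45189835. Each group had 1 library, so no test was run, no difference has a replicate check, and intervals given below are exact (Clopper-Pearson) 95% intervals that cover counting error only. The unstimulated cells were taken at 0 h and no unstimulated library at 90 min was analysed here, so the cytokine and the time in culture cannot be told apart within the pair.

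More genes were lower than higher after IL-2. A log2 ratio above 1, a difference of more than 2-fold, was found for 282 genes (2.81% of those compared), and a ratio below -1 for 444 genes (4.43%). Past 4-fold, 22 genes were higher (0.22%) and 27 were lower (0.269%). Counts of list members past 2-fold below are to be read beside the shares of 2.81% higher and 4.43% lower. The median ratio over all genes was -0.04, and the ratios ran from -0.96 at the 5th percentile to 0.82 at the 95th. At the limits, Rb1cc1 was just inside at 1.0005 and Rad18 just outside at 0.998, and Bin2 was just inside at -1.0002 and Mvb12b just outside at -0.9999.

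**Figure D1:**
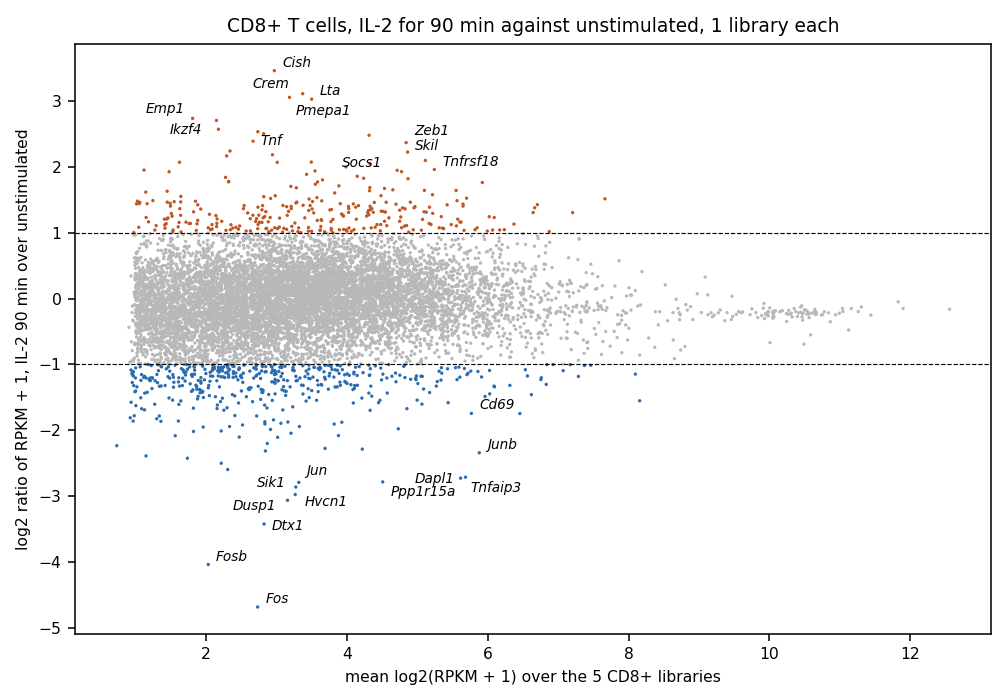
Log2 ratio of RPKM + 1 (IL-2 at 90 min over unstimulated, vertical axis) against the mean log2(RPKM + 1) over the 5 CD8+ libraries (horizontal axis), 1 point per gene for 10021 genes, with dashed lines at ratios of 1 and -1, orange points above and blue points below. Cish lies highest at 3.46 and Fos lowest at -4.68.

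The 5 groups of Tregs, with 3 libraries each, are the one measure in these data of how far libraries of the same group differ. Over the 15 pairs of same-group Treg libraries, between 81 and 1821 of 10473 genes were past a ratio of 1 or -1, with a median of 549 genes (5.24%). In the CD8+ pair 726 genes (7.24%) were past it, a higher percentage than in 11 of the Treg pairs and a lower one than in 4. Unstimulated Treg replicate 1 stands apart from the other two libraries of its group, and without it the 13 remaining pairs still ranged up to 1641 genes, with a median of 548. Past 4-fold, the CD8+ pair had 49 genes (0.489%), and the Treg pairs had between 22 and 212, with a median of 65 genes (0.621%). The count of genes past either threshold was thus within the range that libraries of 1 group showed in another cell type. Of 130 genes past 2-fold that were named by a fixed rule, 49 fell within it when 5 RPKM in place of 1 was added before the logarithm, and those described below are named with that value, written as the ratio with 5 RPKM added, beside their result.

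**Figure D2:**
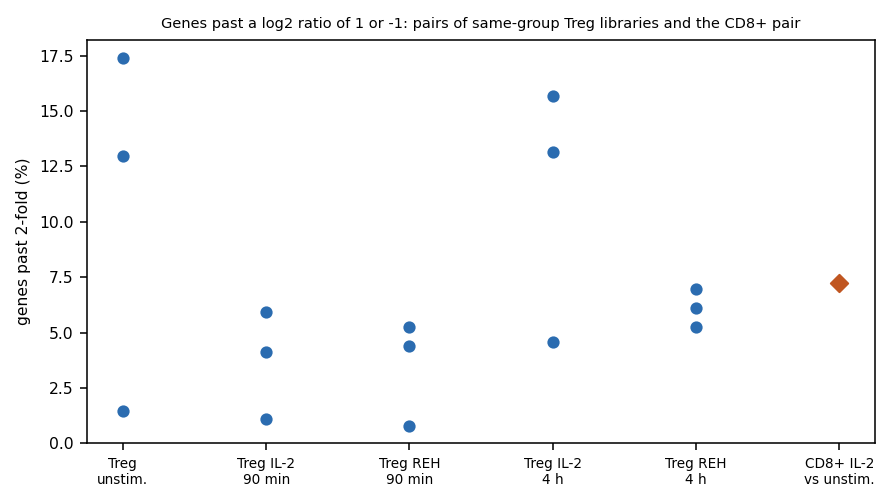
Percentage of genes past a log2 ratio of 1 or -1 (vertical axis, from 0) in each pair of same-group Treg libraries (blue, 3 pairs in each of 5 groups) and in the CD8+ pair of IL-2 at 90 min and unstimulated (orange diamond). The Treg pairs run from 0.773% to 17.4%, and the CD8+ pair lies at 7.24%.

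The libraries carried the label's cell type. All 10 CD8+ T cell markers were above 1 RPKM in both libraries, and Cd8b1, a chain of the CD8 co-receptor, had 472 RPKM in the unstimulated library and 213 RPKM after IL-2. The summed RPKM of the list was 2495 in the unstimulated library and 1462 after IL-2 (1251 to 1708 in the other 3 CD8+ libraries), and 3 of the 10 were lower past 2-fold. Markers of other cells were low, and the summed level of each list was also lower after IL-2, that of granulocytes by the least. The 8 NK cell markers summed to 66.7 and 32.8 RPKM, the 11 macrophage and monocyte markers to 46.5 and 23.6, the 10 B cell markers to 13.9 and 4.47, the 9 dendritic cell markers to 17.3 and 6.35, and the 6 CD4 T cell and Treg markers to 29.7 and 11.9, of which Ctla4 gave 22.1 and 5.32. Erythroid markers summed to 17.8 and 11.5 RPKM, and granulocyte markers to 2.63 and 2.53. The B cell gene Ms4a1 (0.459 and 0.189 RPKM), the defining helper T cell gene Cd4 (1.33 and 0.507) and Foxp3 (0.518 and 0.999) were near 0 in both libraries. Cd79b, the highest B cell marker, had 8.38 and 2.17 RPKM. In bulk RNA, fewer cells of a type and less RNA per cell cannot be told apart, and the part of these cells in the results below was not tested.

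The highest gene belongs to the feedback loop of the IL-2 receptor. Cish encodes CIS, a SOCS family protein induced by STAT5 that inhibits the signalling of cytokine receptors, and lies at chr9:107296659-107302784 (GRCm38). It had 1.87 RPKM (248 reads) unstimulated and 30.6 RPKM (4598 reads) after IL-2, the highest ratio of all genes at 3.46. Without the added RPKM, this was 16.4-fold, with a counting interval on the log2 scale from 3.85 to 4.22. It stood at 2.47 RPKM after IL-2-REH at 90 min, close to the unstimulated value, and at 26.1 RPKM after IL-2 and 2.45 RPKM after IL-2-REH at 4 hr. Socs1, an inhibitor of JAK kinases, had 9.25 RPKM unstimulated, 36.2 after IL-2 and 8.76 after IL-2-REH at 90 min (ratio for IL-2 1.86). Socs2 had 0.557 RPKM unstimulated and 2.3 after IL-2 (ratio 1.08), from 76 and 355 reads, and its ratio with 5 RPKM added was 0.39. All 8 SOCS family genes passed the filter on low values, 3 were higher past 2-fold, none was lower, and their median ratio was 0.57. Cish and Socs1 thus shared 1 order, in which both libraries given IL-2 were high and the unstimulated and both IL-2-REH libraries were low. Socs2 had 2.61 RPKM after IL-2 at 4 hr, and 0.441 and 0.385 RPKM after IL-2-REH at 90 min and 4 hr. It passed the filter on low values only through the IL-2 libraries in which it was high, so its order is no further support.

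The receptor and its kinases moved less. Il2ra, which encodes CD25, had 1.58 RPKM unstimulated, 4.71 after IL-2 and 2.81 after IL-2-REH at 90 min (ratio for IL-2 1.14), a low level beside its mean of 134 RPKM over the Tregs, and a ratio of 0.56 with 5 RPKM added. Il2rb, the β chain, had 122 and 188 RPKM (ratio 0.62), and Il2rg, the γ chain, had 266 and 188 RPKM (-0.50). Jak3, the kinase of the γ chain, was the one gene of this list that was lower past 2-fold, at 26.9 RPKM unstimulated and 11.3 after IL-2 (-1.17). Of the 13 receptor, JAK and STAT genes, 1 was higher and 1 was lower, with a median ratio of 0.31, beside 2.81% higher and 4.43% lower over all genes. Stat5a (0.75) and Stat5b (0.76) were within 2-fold, and Jak3 was at -0.96 with 5 RPKM added.

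**Figure D3:**
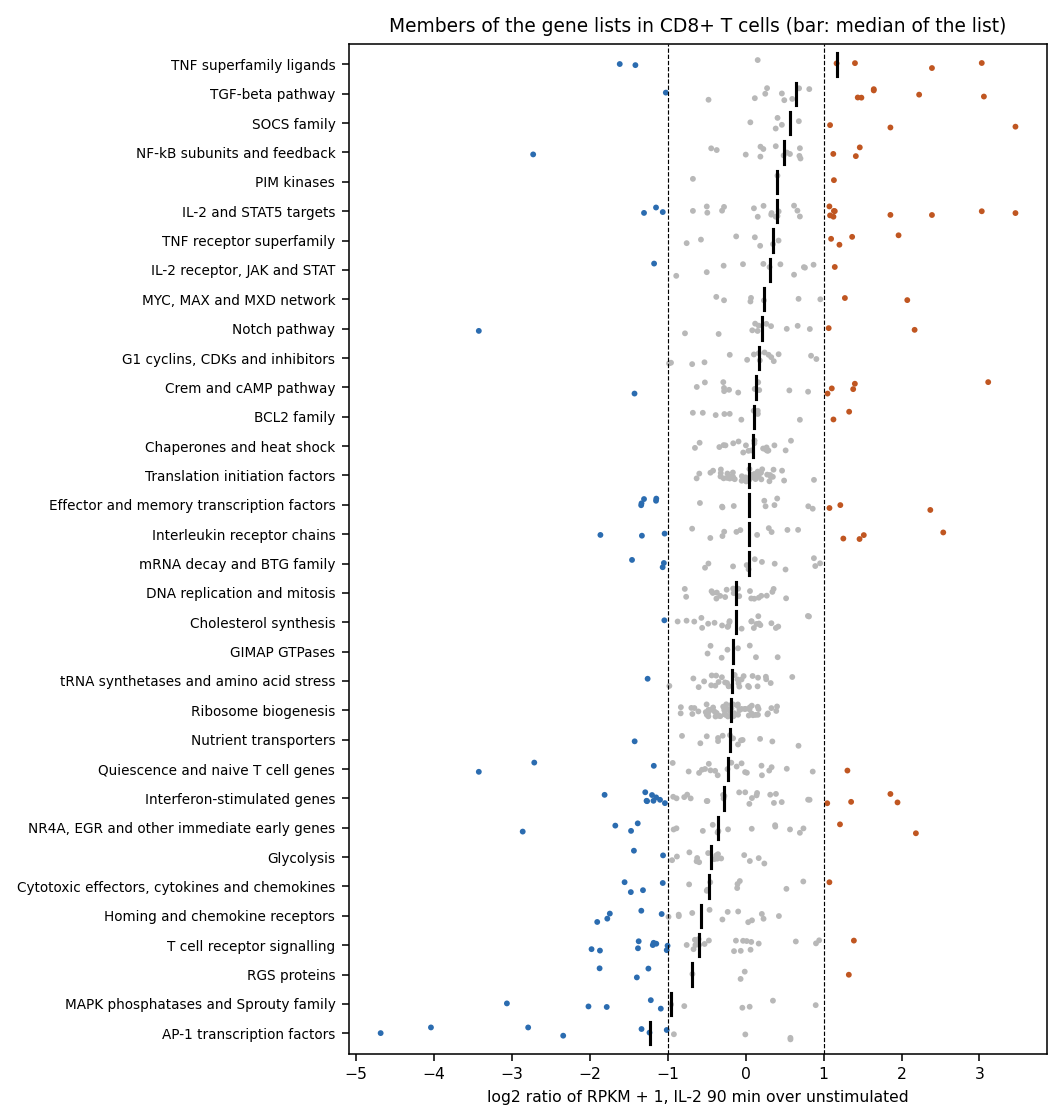
Log2 ratio of RPKM + 1 (horizontal axis) of each list member that passed the filter on low values, 1 point per gene and 1 row per list, ordered by the median ratio (black bar), with dashed lines at 1 and -1. The list of TNF superfamily ligands has the highest median at 1.17 and the AP-1 transcription factors the lowest at -1.23.

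Genes of TNF superfamily ligands, which encode cytokines that act on neighbouring cells through TNF receptors, had the highest median of the lists at 1.17. Of 15 genes 7 passed the filter, 4 of them were higher and 2 were lower past 2-fold. Lta, which encodes lymphotoxin-α and lies beside Tnf on chromosome 17 (chr17:35203165-35205578), had 3.21 RPKM unstimulated, 33.4 after IL-2 and 4.33 after IL-2-REH at 90 min, a ratio for IL-2 of 3.03. At 4 hr IL-2 gave 43.4 RPKM and IL-2-REH 4.37. Tnf, the inflammatory cytokine, lies at chr17:35199367-35202007 and had 2.03 RPKM unstimulated, 14.9 after IL-2 and 2.55 after IL-2-REH at 90 min (2.39). Both genes were high with IL-2 at both times and low in the other 3 libraries. Tnfsf8, which encodes CD30 ligand, had 16.1 RPKM unstimulated and 44.3 after IL-2 (1.40), but only 6.51 after IL-2-REH at 90 min, below the unstimulated library. Fasl, the ligand of the death receptor Fas, had 5.83 and 14.3 RPKM (1.17) and 4.04 after IL-2-REH. The lower members were Tnfsf10, which encodes TRAIL (7.52 and 1.78 RPKM, -1.62), and Tnfsf14, which encodes LIGHT (3.55 and 0.708 RPKM, -1.41). With 5 RPKM added, Fasl (0.84), Tnfsf10 (-0.88) and Tnfsf14 (-0.58) were within 2-fold.

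Among the receptors of this family, 4 of the 11 that passed the filter were higher and none was lower past 2-fold, with a median of 0.35. Tnfrsf18 encodes GITR, a costimulatory receptor and a known marker of Tregs (chr4:156026322-156028894). It had 19.3 RPKM unstimulated, 78.0 after IL-2 and 28.7 after IL-2-REH at 90 min (ratio for IL-2 1.96), and 66.8 RPKM after IL-2 at 4 hr. Tnfrsf1b, the second TNF receptor, had 12.6 and 34.1 RPKM (1.37), with 27.5 after IL-2-REH. Fas had 9.22 and 20.9 RPKM (1.10, and 0.86 with 5 RPKM added), with 8.99 after IL-2-REH. The receptors thus did not share 1 order over the 90 min libraries, since Tnfrsf1b was high with either cytokine and Fas only with IL-2.

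Other genes known as targets of IL-2 or STAT5 were split. Of 30 listed, 28 passed the filter, 9 were higher and 3 were lower, with a median ratio of 0.40. The reads of the whole list made up 0.419% of reads on genes in the unstimulated library, 0.611% after IL-2 and 0.422% after IL-2-REH at 90 min. Bcl2, the survival factor, had 30.4 RPKM unstimulated, 67.5 after IL-2 and 20.4 after IL-2-REH (ratio for IL-2 1.13), and 98.5 RPKM after IL-2 at 4 hr. Pim1, a kinase of cell survival, had 57.6 and 128 RPKM (1.13), and Gzmb, the cytotoxic protease granzyme B, 8.19 and 18.3 RPKM (1.07). Bcl2 and Gzmb were lower after IL-2-REH than in the unstimulated library, and Gzmb had 4.58 RPKM there. The 3 lower members were the transcription factor genes Eomes (22.4 and 8.48 RPKM, -1.30) and Bcl6 (3.21 and 0.898 RPKM, -1.15) and the cytokine gene Ifng (7.89 and 3.25 RPKM, -1.06). Gzmb (0.82), Bcl6 (-0.48) and Ifng (-0.64) were within 2-fold with 5 RPKM added. Bcl2 was at 0.93 with ratios centred by exon length, as described below. Bcl6 had 6.23 RPKM after IL-2-REH at 90 min, so this gene had its lowest value after IL-2 and its highest after IL-2-REH among the libraries up to 90 min.

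A second set of high genes stood at like levels with both cytokines at 90 min. Crem, which encodes a transcription factor of the cAMP pathway, had 2.12 RPKM unstimulated, 25.9 after IL-2 and 18.5 after IL-2-REH at 90 min, a ratio for IL-2 of 3.11. At 4 hr IL-2 gave 10.5 RPKM and IL-2-REH 5.31. Pmepa1, which encodes an inhibitor of TGF-β signalling (chr2:173224458-173276731), had 2.08 RPKM unstimulated, 24.7 after IL-2 and 19.2 after IL-2-REH at 90 min (3.06), and 7.03 RPKM after IL-2 at 4 hr. Both genes were highest at 90 min and lower again at 4 hr. Ramp3, a partner of the calcitonin-like receptor, had 2.48 RPKM unstimulated, 18.8 after IL-2 and 21.3 after IL-2-REH at 90 min (2.51), and 2.21 RPKM after IL-2 at 4 hr, back at the unstimulated level. Zeb1, a zinc finger repressor of transcription in the list of effector and memory factors, had 10.7, 59.3 and 55.4 RPKM in the same first 3 libraries (2.37). It had 19.3 RPKM after IL-2 at 4 hr. Skil, a corepressor of SMAD proteins, had 11.2, 56.2 and 59.2 RPKM (2.23), and 19.2 RPKM after IL-2 at 4 hr. Nr4a3, a nuclear receptor induced by T cell activation, had 3.4, 19.0 and 16.1 RPKM (2.18), and 3.17 RPKM after IL-2 at 4 hr.

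**Figure D4:**
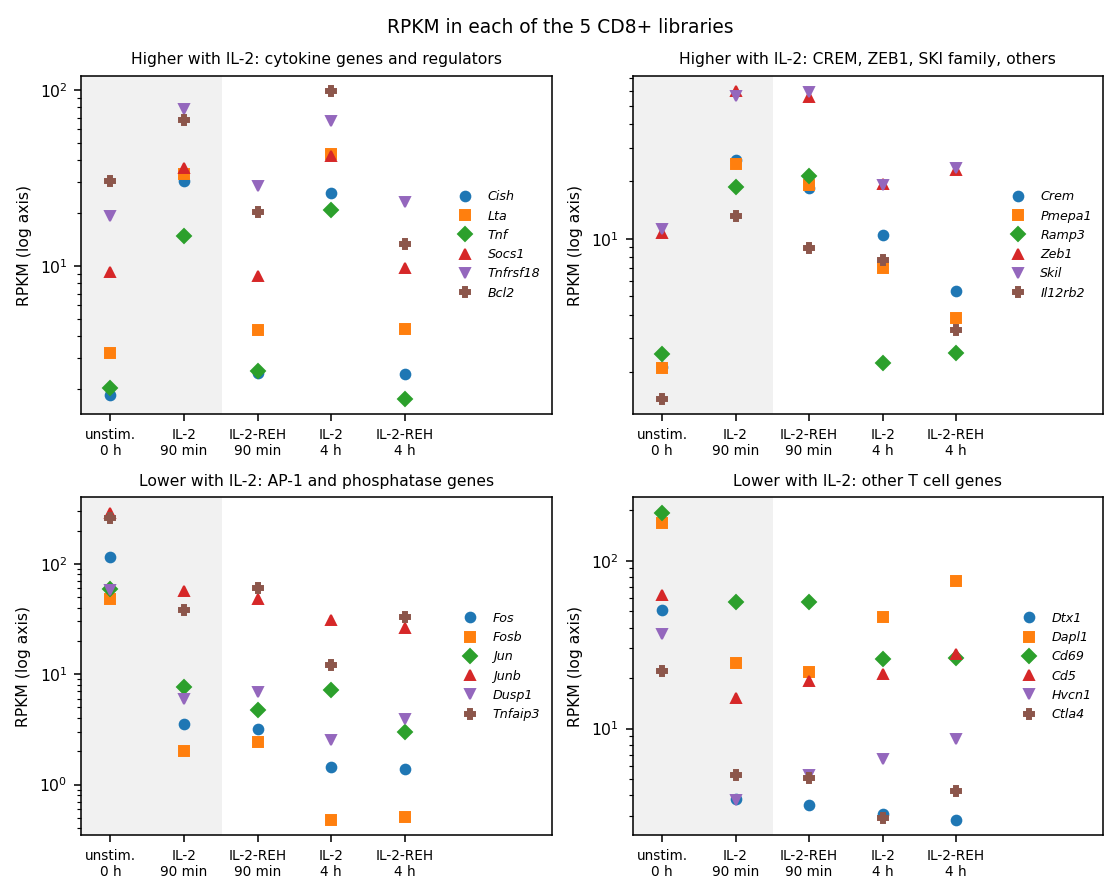
RPKM (vertical log axis) in each of the 5 CD8+ libraries for 12 genes that were higher and 12 that were lower after IL-2 at 90 min, with the compared pair on a grey ground and 1 point per gene and library. Cish, Lta, Tnf and Socs1 are high in both IL-2 libraries and low in the other 3, whereas Crem, Pmepa1, Ramp3, Zeb1 and Skil are high in both 90 min libraries.

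Several genes that bear on TGF-β signalling were in this second set. Of 19 genes of that list, 16 passed the filter, 6 were higher and 1 was lower past 2-fold, with a median of 0.64. Beside Pmepa1 and Skil, the higher ones were the corepressor gene Ski (20.1 and 64.8 RPKM, 1.64), Tgif1, which encodes another SMAD corepressor (25.3 and 81.1 RPKM, 1.64), Ldlrad4, an inhibitor related to Pmepa1 (4.88 and 15.5 RPKM, 1.49), and the ubiquitin ligase gene Smurf2 (9.92 and 28.6 RPKM, 1.44). All 6 are known to restrain TGF-β or SMAD signalling. Smad7 (0.46), Smurf1 (0.50) and Tgif2 (0.12), listed genes known for the same role, were within 2-fold, so the inhibitors did not rise as a class. Of the receptors and SMADs, Tgfbr1 (0.69), Tgfbr2 (0.27), Smad2 (0.25), Smad3 (-0.48) and Smad4 (0.60) were within 2-fold, and the co-receptor gene Tgfbr3 was lower (8.42 and 3.63 RPKM, -1.02). With 5 RPKM added, Tgfbr3 was at -0.64. After IL-2-REH at 90 min, Ski had 52.1, Tgif1 112, Ldlrad4 19.1 and Smurf2 27.5 RPKM, all above the unstimulated library as well.

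In the cAMP list, 5 of the 18 genes that passed the filter were higher and 1 was lower, with a median of 0.14. Beside Crem these were the phosphodiesterase genes Pde8a (3.99 and 12.2 RPKM, 1.40), Pde3b (24.0 and 52.7 RPKM, 1.11) and Pde4d (9.04 and 19.8 RPKM, 1.05), whose enzymes break down cAMP, and the anchoring protein gene Akap13 (61.5 and 161.6 RPKM, 1.38). Adcy7, an adenylyl cyclase that makes cAMP, was the lower one, at 58.5 and 21.2 RPKM (-1.43). With 5 RPKM added, Pde8a (0.93), Pde3b (0.995) and Pde4d (0.82) were within 2-fold. In the MYC, MAX and MXD list, 2 of 9 were higher and none was lower. Mxd1, which encodes a repressor that competes with MYC for MAX, had 5.9 RPKM unstimulated, 28 after IL-2 and 11.2 after IL-2-REH at 90 min (2.07), and Mxd4 had 11.6 and 29.5 RPKM (1.27). Myc itself was within 2-fold after IL-2 at 90 min, at 39.4 and 32.3 RPKM (-0.28), and stood at 8.98 RPKM after IL-2-REH at 90 min and 70.0 RPKM after IL-2 at 4 hr.

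The Notch list held genes far to either side of 0. Of 14 genes that passed the filter, 2 were higher and 1 was lower, beside 2.81% higher and 4.43% lower over all genes. Nrarp, a feedback inhibitor of Notch, had 1.73 RPKM unstimulated, 11.3 after IL-2 and 6.95 after IL-2-REH at 90 min (2.17), and Rbpj, the DNA-binding factor of the pathway, had 9.74 and 21.5 RPKM (1.07, and 0.84 with 5 RPKM added). Dtx1, an E3 ligase of the pathway that is also known for T cell anergy, had 50.6 RPKM unstimulated and 3.81 after IL-2, the third lowest ratio of all genes at -3.42. It stayed low in the other 3 libraries, between 2.85 and 3.50 RPKM.

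Among the highest genes outside these lists, Emp1, which encodes a membrane protein (chr6:135362550-135383173), had 0.696 RPKM unstimulated, 10.3 after IL-2 and 3.10 after IL-2-REH at 90 min (2.74). Ikzf4, which encodes the Ikaros family factor Eos, known from Tregs (chr10:128630839-128669671), had 0.577, 9.29 and 2.69 RPKM in the same order (2.71). These 2 genes were intermediate with IL-2-REH. Il12rb2, a chain of the IL-12 receptor, had 1.45, 13.2 and 8.92 RPKM (2.54), and leads the list of interleukin and interferon receptor chains, of which 4 of 18 were higher and 3 were lower. The other higher ones were both chains of the interferon-γ receptor, Ifngr1 (87.5 and 252 RPKM, 1.52) and Ifngr2 (12.8 and 36.9 RPKM, 1.46), and Il10ra (9.21 and 23.4 RPKM, 1.25). Il12rb1, the partner chain of Il12rb2, was lower (4.95 and 0.636 RPKM, -1.86), as were Il15ra (3.6 and 0.829 RPKM, -1.33) and Il27ra (78.4 and 37.6 RPKM, -1.04). Il10ra (0.996), Il12rb1 (-0.82), Il15ra (-0.56) and Il27ra (-0.97) were within 2-fold with 5 RPKM added. Ikzf4 and Il12rb2 overlap other annotated genes, and whether the strand was used in counting is not stated, so reads of such overlaps cannot be assigned with certainty.

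The NF-κB list leaned to higher values, with 14 of 17 ratios above 0, beside 4710 of all 10021 genes. Its median was 0.49, and 3 genes were higher past 2-fold. These were Nfkb2 (14.3 and 41.3 RPKM, 1.46) and Relb (11.9 and 27.1 RPKM, 1.12), which encode the subunits of the noncanonical pathway, and Bcl3, an atypical inhibitor protein (5.69 and 16.8 RPKM, 1.41), and with 5 RPKM added Relb was at 0.93. The 1 lower gene was Tnfaip3, which encodes the feedback inhibitor A20. It was among the most abundant of the lower genes, at 260 RPKM (70505 reads) unstimulated, 38.4 RPKM (11795 reads) after IL-2 and 60.8 after IL-2-REH at 90 min (ratio for IL-2 -2.73), and 12.1 RPKM after IL-2 at 4 hr.

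The 2 lowest genes, Fos and Fosb, encode subunits of AP-1, the dimeric transcription factor of FOS and JUN proteins, whose genes are known to respond within minutes to many stimuli. Fos (chr12:85473890-85477274) had 116 RPKM (14870 reads) unstimulated and 3.54 RPKM (515 reads) after IL-2, the lowest ratio of all genes at -4.68. Without the added RPKM, it was lower by 32.7-fold, with a counting interval on the log2 scale from -5.16 to -4.90. It had 3.20 RPKM after IL-2-REH at 90 min, 1.44 after IL-2 at 4 hr and 1.38 after IL-2-REH at 4 hr, so that 1 library of the 5, the unstimulated one, was high. Fosb (chr7:19302696-19310118) had 48.4 RPKM unstimulated and 2.01 after IL-2 (-4.04), with 2.42 after IL-2-REH at 90 min and 0.477 after IL-2 at 4 hr. Jun (chr4:95049036-95052222) had 59.3 RPKM unstimulated and 7.71 after IL-2 (-2.79), with 4.74 after IL-2-REH. Junb had 289 and 56.3 RPKM (-2.34), with 47.9 after IL-2-REH. Fosb, Jun and Junb repeated the order of Fos, with the unstimulated library above the other 4. Batf (15.5 and 5.54 RPKM, -1.34), which pairs with JUN proteins in effector T cells, and the small MAF genes Maff (8.74 and 3.14 RPKM, -1.23) and Mafk (25.8 and 12.3 RPKM, -1.01) were also lower, but with 5 RPKM added Batf (-0.96), Maff (-0.75) and Mafk (-0.83) were within 2-fold. Fosl2 (0.57), Mafg (0.58) and Atf3 (-0.004) were within 2-fold as well. Of 14 listed genes 11 passed the filter, 7 were lower past 2-fold and none was higher, with a median of -1.23. Reads on the 14 genes made up 0.232% of reads on genes unstimulated (95% interval 0.230% to 0.233%), 0.0657% after IL-2 (0.0649% to 0.0664%), 0.0601% after IL-2-REH at 90 min, 0.0513% after IL-2 at 4 hr and 0.0328% after IL-2-REH at 4 hr.

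Genes that turn off MAP kinase signalling followed. Of 11 phosphatase and Sprouty family genes that passed the filter, 5 were lower and none was higher, with a median of -0.96. Dusp1, a phosphatase of p38 and JNK that is itself an immediate early gene (chr17:26505591-26508472), had 57.4 RPKM unstimulated, 5.99 after IL-2 and 6.89 after IL-2-REH at 90 min (ratio for IL-2 -3.06). Dusp6, a phosphatase of ERK, had 9.21 and 1.52 RPKM (-2.02), Spry2, a feedback inhibitor of the RAS pathway, 6.12 and 1.07 RPKM (-1.78), Dusp5 32.3 and 13.3 RPKM (-1.22), and Dusp10 24.6 and 11 RPKM (-1.09). With 5 RPKM added, Spry2 (-0.87) and Dusp10 (-0.88) were within 2-fold. All 5 were below the unstimulated value in the IL-2-REH library at 90 min too. Dusp16 had the highest value of the list at 0.86 and 2.47 RPKM (0.90).

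Other immediate early genes were mixed, with 4 of 19 lower, 2 higher and a median of -0.35. Sik1, a kinase induced by cAMP and stress, had 51.0 and 6.15 RPKM (-2.86), Klf4 had 5.06 and 0.903 RPKM (-1.67), Egr1 had 23.8 and 7.95 RPKM (-1.47), and Srf, the factor that binds the serum response element, had 16.7 and 5.79 RPKM (-1.38). The higher ones were Nr4a3 and Egr2 (2.2 and 6.41 RPKM, 1.21), so that Egr1 and Egr2, and Nr4a3 and Nr4a1 (-0.35), differed in direction or size. Klf4 (-0.77) and Egr2 (0.66) were within 2-fold with 5 RPKM added. Ppp1r15a, which encodes the stress-induced phosphatase subunit GADD34, was outside the lists and had 121 RPKM unstimulated, 16.8 after IL-2 and 18.2 after IL-2-REH (-2.78). In the list of mRNA decay and BTG genes, 3 of 15 were lower and none was higher. The 3 belong to the ZFP36 family, whose proteins bind AU-rich elements and destabilize cytokine mRNA: Zfp36 (86.5 and 41.3 RPKM, -1.05), Zfp36l1 (78.2 and 36.9 RPKM, -1.06) and Zfp36l2 (206 and 74.5 RPKM, -1.46). With 5 RPKM added, Zfp36 (-0.98) and Zfp36l1 (-0.99) were within 2-fold.

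T cell receptor signalling genes were mostly below 0. Of 30 listed, all passed the filter, 22 ratios were below 0, 9 were below -1 and 1 was above 1, with a median of -0.60. Over all 10021 genes, 5311 ratios were below 0. Cd5, a surface inhibitor of the receptor whose level is known to follow signal strength, had 62.7 RPKM unstimulated, 15.2 after IL-2 and 19.2 after IL-2-REH at 90 min (-1.98). The inhibitory receptor gene Ctla4 had 22.1, 5.32 and 5.09 RPKM in the same order (-1.87). Malt1, which encodes a protease and scaffold of the path to NF-κB (23.8 and 9.87 RPKM, -1.19), and Ptpn6, which encodes the phosphatase SHP-1 (76.3 and 33.1 RPKM, -1.18), were also lower, Malt1 by less than 2-fold with 5 RPKM added (-0.95). The higher gene was Cblb, a ubiquitin ligase that restrains T cell activation, at 19.5 and 52.7 RPKM (1.39), with 64.9 after IL-2-REH. Of the CD3 and CD8 genes, Cd8b1 (-1.15) and Cd3g (-1.01, and -0.99 with 5 RPKM added) were lower past 2-fold. Cd3d (-0.60), Cd3e (-0.76) and Cd8a (-0.63) were below 0 but within 2-fold, and Cd247 was at 0.17. The kinase gene Lck had 285 and 181 RPKM (-0.65).

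Surface molecules of homing and residence were lower or within 2-fold. Of 18 homing genes that passed the filter 5 were lower and none was higher, with a median of -0.57. Cd69, an early activation marker that holds T cells in tissue, had 193 RPKM unstimulated, 57.0 after IL-2 and 56.8 after IL-2-REH at 90 min (-1.74). The oxysterol receptor gene Gpr183 had 38.6, 9.56 and 9.41 RPKM (-1.90), and Ccr9, a gut homing receptor that is also a marker of some dendritic cells, 12.6, 2.97 and 3.88 RPKM (-1.78). Cd69, Gpr183 and Ccr9 were thus about as low with IL-2-REH as with IL-2. The integrin gene Itgb7 had 140 and 54.9 RPKM (-1.34), and Ccr2 5.11 and 1.90 RPKM (-1.08, and -0.55 with 5 RPKM added). The lymph node homing receptor gene Ccr7 (0.23) and the egress receptor gene S1pr1 (0.03) were within 2-fold.

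Of 25 genes of quiescent or naive T cells, 3 were lower and 1 was higher, with a median of -0.23. Over all genes, 4.43% were lower and 2.81% were higher. Dapl1, a gene of naive T cells, had 167.3 RPKM (5888 reads) unstimulated, 24.7 RPKM (983 reads) after IL-2 and 21.8 after IL-2-REH at 90 min (-2.71), and 46.2 RPKM after IL-2 at 4 hr. Dtx1 and Igfbp4 (67.7 and 29.3 RPKM, -1.18) were the other lower ones, and Slfn2 (84.2 and 210 RPKM, 1.31) was the higher one. The factors that maintain this state, Klf2 (-0.12), Lef1 (-0.18), Foxp1 (-0.05) and Tcf7 (-0.60), were within 2-fold. Of 18 effector and memory factors, 3 were higher and 5 were lower. Beside Zeb1, Irf4 (3.43 and 9.28 RPKM, 1.21) and Runx3 (27.6 and 59.2 RPKM, 1.08) were higher, and beside Eomes, Bcl6 and Batf, Id2 (43.3 and 19.0 RPKM, -1.15) and Hopx (25.5 and 9.46 RPKM, -1.34) were lower. Irf4 (0.76), Runx3 (0.98), Bcl6 (-0.48) and Batf (-0.96) were within 2-fold with 5 RPKM added. Hvcn1, a proton channel gene, was among the lowest outside the lists at 36.5 and 3.76 RPKM (-2.98), and overlaps Tctn1.

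Of 14 cytotoxic, cytokine and chemokine genes that passed the filter, 4 were lower, 1 (Gzmb) was higher and 9 were within 2-fold, with a median of -0.47. The chemokine genes Ccl3 (11.1 and 3.13 RPKM, -1.55) and Ccl4 (12.9 and 3.99 RPKM, -1.47), the granule gene Nkg7 (204 and 81.4 RPKM, -1.32) and Ifng were the lower ones, and with 5 RPKM added Ccl3 (-0.99), Ccl4 (-0.99), Ifng (-0.64) and Gzmb (0.82) were within 2-fold. Ccl3 and Ccl4 overlap each other as annotated, so reads of the overlap cannot be assigned with certainty. After IL-2-REH at 90 min, the lower genes were lower still: Ccl3 had 0.732 RPKM, Ccl4 1.34, Nkg7 40.5 and Ifng 0.905. The NK cell markers, which share genes with cytotoxic T cells, were lower in the same pair by a median of -0.80, and their part in these values was not tested. Prf1 (-0.49), Gzma (-0.07), Gzmk (0.74) and Srgn (0.52) were within 2-fold.

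Of 35 interferon-stimulated genes that passed the filter, 4 were higher, 9 were lower and 22 were within 2-fold, with a median of -0.28. The higher ones were Socs1 and the immunity-related GTPase genes Irgm2 (8.12 and 34.2 RPKM, 1.95), Gm12250 (6.55 and 18.3 RPKM, 1.35) and Igtp (47.7 and 99.6 RPKM, 1.05, and 0.99 with 5 RPKM added). The lower ones included Mx1 (4.44 and 0.552 RPKM, -1.81), Ifit1 (5.4 and 1.66 RPKM, -1.26), Ifit3 (9.43 and 3.32 RPKM, -1.27) and Oas3 (9.78 and 3.69 RPKM, -1.20). These 4 were within 2-fold with 5 RPKM added, at -0.77 for Mx1, -0.64 for Ifit1, -0.79 for Ifit3 and -0.77 for Oas3. Irgm1 (0.14), Gbp2 (0.08), Iigp1 (0.39), Oasl2 (0.15) and Isg20 (-0.01) were within 2-fold. After IL-2-REH at 90 min, Irgm2 had 19.9 RPKM and Gm12250 5.29, and Mx1, Ifit1, Ifit3 and Oas3 were at about the same low level as with IL-2, between 0.604 and 3.33 RPKM.

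Lists of growth and division held few genes past 2-fold at 90 min, beside the 2.81% higher and 4.43% lower over all genes, at which a list of 22 genes would hold 1 or 2. None of 58 ribosome biogenesis genes (median -0.19), 42 translation initiation factors (0.05), 22 chaperones (0.09), 22 replication and mitosis genes (-0.12) and 16 G1 cyclin, CDK and inhibitor genes (0.18) was past it in either direction. Cdk6, a kinase of the G1 phase, had 4.69 RPKM unstimulated, 6.63 after IL-2 and 2.95 after IL-2-REH at 90 min (0.42), and 25.2 RPKM after IL-2 at 4 hr, so its high value came with the later library. In the list of tRNA synthetases and the response to amino acid stress, 1 of 30 was lower, the serine synthesis gene Phgdh (29.5 and 11.8 RPKM, -1.26). Of 18 glycolysis genes 2 were lower and none was higher, with a median of -0.44: Pdk1 (43.3 and 15.4 RPKM, -1.43) and Tpi1 (21.6 and 9.82 RPKM, -1.06). Gapdh, used as a reference gene in many assays, had 257 and 200 RPKM (-0.36). Of 15 nutrient transporter genes the glucose transporter gene Slc2a3 was lower (12.2 and 3.91 RPKM, -1.42), and of 26 cholesterol synthesis genes Dhcr7 was (6.49 and 2.64 RPKM, -1.04). With 5 RPKM added, Tpi1 (-0.84), Slc2a3 (-0.95) and Dhcr7 (-0.59) were within 2-fold. In the BCL2 family, Bcl2 and its antagonist Bcl2l11, which encodes BIM (10.5 and 27.8 RPKM, 1.33), were both higher among 13 genes. Bcl2l11 had 36.5 RPKM after IL-2-REH at 90 min, above the IL-2 library, whereas Bcl2 was below the unstimulated library there.

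Some smaller families are given for completeness. Of 7 RGS genes, which shorten G protein signals, Rgs1 was higher with IL-2 at 83.5 RPKM against 32.8 unstimulated (1.32) and stood at 10.9 after IL-2-REH at 90 min, while Rgs2 (25.7 and 6.28 RPKM, -1.87), Rgs3 (14.9 and 5.68 RPKM, -1.25, and -0.90 with 5 RPKM added) and Rgs14 (22.1 and 7.76 RPKM, -1.40) were lower. None of the 8 GIMAP genes, which encode GTPases of lymphocyte survival, was past 2-fold, and their median was -0.17.

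STAT5 binds the letters TTCNNNGAA, and the 250 bases before 1 RefSeq start per gene (GRCm38.p6) were searched for them and for 4 other motifs on both strands: CRE (TGACGTCA), the E-box (CACGTG), AP-1 (TGANTCA) and the CArG box of SRF. None of these motifs contains another. A single matched promoter was found for 5957 of the 10021 genes. The STAT5 letters were in 375 of all 5957 promoters (6.30%), in 14 of 150 genes above 1 (9.33%), in 10 of 222 genes below -1 (4.50%), and in 3 of the 14 genes above 2, which were Lta, Il12rb2 and Dennd4a. The RefSeq start used was the outermost start of the gene in 3281 of the 5957 genes (55.1%), and in the others the window can lie within the gene. Both matches of Lta and that of Dennd4a lie inside the annotated span of the gene, behind an earlier start, and that of Il12rb2 lies outside it. Among the genes with the outermost start the STAT5 letters were in 6.64% of all, in 7 of 75 genes above 1 (9.33%), in 7 of 125 genes below -1 (5.60%) and in none of the 5 above 2. AP-1 letters were in 3.59% of all, 3.33% of the higher and 5.86% of the lower genes, CRE letters in 3.16%, 3.33% and 0.901%, E-boxes in 8.80%, 7.33% and 9.01%, and CArG boxes in 1.04%, 1.33% and 1.80%. A match is a run of letters and not a shown binding site. The matches in the highest named genes are shown here with up to 10 bases on either side, 5′ to 3′ on the strand of the gene, with the 9 letters of the motif in capitals:
Lta, at -152 to -144 from the start used, inside the gene (chr17:35205485-35205513, minus strand): accatcactcTTCAGGGAAccaggcttcc
Lta, at -16 to -8, inside the gene (chr17:35205352-35205377, minus strand): ccgactccctTTCCCAGAAcgcagta
Il12rb2, at -123 to -115 (chr6:67376293-67376321, minus strand): gttcccttttTTCTCAGAAccgcactaag
Dennd4a, at -166 to -158, inside the gene (chr9:64810835-64810863, plus strand): caacgcgcttTTCAGAGAAcccctctgaa
Tnfrsf18, at -99 to -91 (chr4:156026213-156026241, plus strand): tgctctacacTTCACAGAAggcctttaca
Irgm2, at -75 to -67 (chr11:58214892-58214920, plus strand): aactagccatTTCCAGGAActgaaactga

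The window of the highest gene, Cish, held none of the 5 motifs, and this says only that these letters are not in this window. For the lowest gene with a motif, Dusp1, the window held a CRE at -143 to -136 and an E-box at -126 to -121, in capitals below, and the window of Fos held none. The 250 bases before the start of each are shown, 5′ to 3′, as the regions next to the genes with the most extreme ratios:
Cish (chr9:107296409-107296658, plus strand): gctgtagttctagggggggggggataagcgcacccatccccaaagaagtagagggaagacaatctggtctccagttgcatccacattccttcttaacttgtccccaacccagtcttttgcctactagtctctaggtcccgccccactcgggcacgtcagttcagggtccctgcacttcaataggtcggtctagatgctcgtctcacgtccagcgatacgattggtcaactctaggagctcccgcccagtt
Fos (chr12:85473640-85473889, plus strand): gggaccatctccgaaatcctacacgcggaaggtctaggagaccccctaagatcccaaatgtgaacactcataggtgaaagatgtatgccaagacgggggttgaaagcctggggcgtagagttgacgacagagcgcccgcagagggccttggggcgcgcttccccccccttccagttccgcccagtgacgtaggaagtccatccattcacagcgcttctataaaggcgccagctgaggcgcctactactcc
Dusp1 (chr17:26508473-26508722, minus strand): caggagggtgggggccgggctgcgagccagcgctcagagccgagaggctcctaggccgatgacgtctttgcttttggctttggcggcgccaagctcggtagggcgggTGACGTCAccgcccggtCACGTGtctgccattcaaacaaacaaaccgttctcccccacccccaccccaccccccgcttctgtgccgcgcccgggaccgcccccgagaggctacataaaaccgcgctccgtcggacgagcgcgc

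The ratio varied with the length of the transcript. Across the 10021 genes, which are not independent replicates, Spearman's rho between the log2 ratio and exon length was 0.26. The median exon length was 3232 bases in the 282 higher genes, 2164 bases in the 444 lower genes and 2687 bases over all. In the shortest of 4 equal bins of exon length 2.11% were higher and 6.11% were lower, and in the longest bin 4.43% were higher and 2.63% were lower. With ratios centred within 20 bins of exon length, an alternative chosen after this was seen, 299 genes were higher and 372 lower, and 242 of the 282 and 331 of the 444 were kept. Of the 130 named genes past 2-fold, 12 fell within it, among them Bcl2 (0.93), Id2 (-0.98), Cd8b1 (-0.98) and Dusp5 (-0.998). The part of RNA length in the ratios beyond this was not tested. Transcripts under 200 bases, such as small RNAs that a poly(A) selection is not meant to capture, made up 25 of the higher genes (8.87%) and 32 of the lower genes (7.21%), against 2.42% of all genes. Snord16a, a small nucleolar RNA inside Rpl4, is one of them among the lowest genes, at 81 reads unstimulated and 11 after IL-2 (-2.50), with a counting interval on the log2 scale from -4.12 to -2.14 without the added RPKM.

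Tregs received the same IL-2 dose for the same time and do not share libraries with the CD8+ pair. Their unstimulated libraries were also from 0 h, so in Tregs too the cytokine and the time in culture cannot be told apart. Of the 282 higher genes, 276 were expressed in Tregs, and in 160 of these (58.0%) all 3 same-numbered Treg pairs lay above 0, against 17.0% of all 9669 genes expressed in both. Of the 444 lower genes 399 were expressed in Tregs, and in 182 (45.6%) all 3 pairs lay below 0, against 13.4% of all. The first pair holds the unstimulated library that stands apart, and the median Treg ratios of the higher genes were 0.31, 0.83 and 1.05 over the 3 pairs, and of the lower genes -0.06, -1.03 and -1.18. Over all genes the medians were 0.17, -0.28 and -0.22. Past 2-fold in every Treg pair were 14 of the higher genes (5.07%, against 0.455% of all) and 6 of the lower genes (1.50%, against 0.0931%). Cish had Treg ratios of 2.1, 1.98 and 1.78, Ikzf4 of 1.62, 1.22 and 1.42, Il12rb2 of 1.11, 1.88 and 1.46, and Socs1 of 3.42, 1.38 and 1.31. Cish, Ikzf4, Il12rb2, Mxd1 and Socs1 are the named genes among the 14, and Fos and Dusp1 those among the 6.

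Some extreme genes of the CD8+ pair had other values in Tregs. Ramp3 had Treg ratios of -0.23, 4.70 and 4.48, Nr4a3 of -0.86, 4.54 and 4.54, and Crem of -0.20, 4.58 and 4.32, near or below 0 in the first pair and above the CD8+ ratio in the other pairs. Kcnip2, a potassium channel interacting protein gene with a CD8+ ratio of 2.24, had 0.39, 0.45 and 0.17. For the lowest genes, Fos had Treg ratios of -1.71, -1.11 and -2.72, Dusp1 of -1.65, -1.24 and -2.26, and Fosb of -1.22, 1.40 and -0.87. Fos and Dusp1 were thus below 0 in every pair of either cell type, and Fosb was not. Whether the CD8+ and Treg values differ was not tested, since the CD8+ pair has no replicate.

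**Figure D5:**
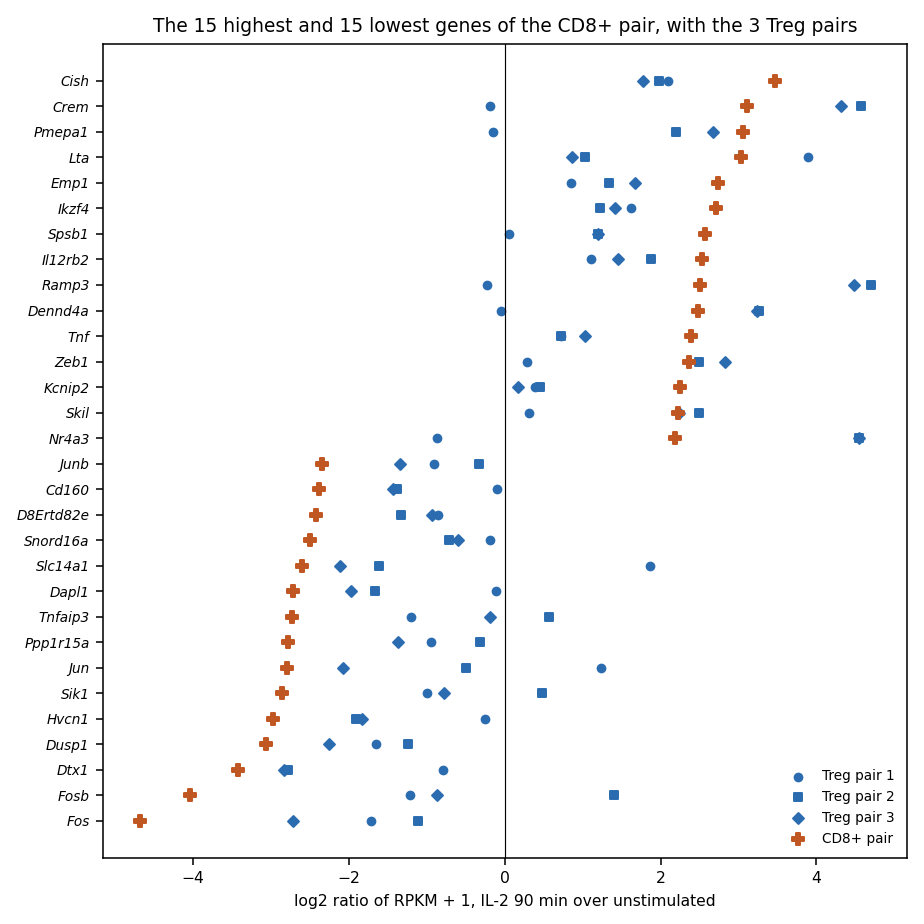
Log2 ratio of RPKM + 1, IL-2 at 90 min over unstimulated (horizontal axis), for the 15 highest and 15 lowest genes of the CD8+ pair, with the CD8+ pair as orange crosses and the 3 same-numbered Treg pairs as blue circles, squares and diamonds. Treg pair 1 of Crem, Ramp3 and Nr4a3 lies near or below 0, and the other pairs lie above 4.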

How the data were processed

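RNA was made into libraries with poly(A) selection and sequenced in 50-base single-end reads. The authors mapped reads to mm10 (Bowtie2 2.2.6, TopHat2 2.1.1) and deposited 2 values for 31682 RefSeq transcripts: the unnormalized count of unique reads on exons, and the RPKM. The submitters' processing notes also name SAMtools 0.1.8, bedtools 2.25.0 and edgeR.

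Where a symbol had several transcripts (4343 symbols), the one with the highest read total in the 20 libraries was taken. Genes below an average of 1 RPKM in the 5 CD8+ libraries were left out, and log2 ratios of RPKM + 1 were counted past 1 and -1. With 1 library per group no test was run, and no pair of libraries was identical. The ratio code was tested on simulated data. Python 3.11.15, pandas 2.3.3, scipy 1.17.1, R 4.3.3, edgeR 4.0.16 and DESeq2 1.42.0 (both for scaling factors only) were used.

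Named genes are the 15 highest and 15 lowest ratios, up to 4 members of each list with the largest absolute ratio (up to 8 where over 4 were past 1), genes the paper names for CD8+ T cells, and cell type markers. List members given only by a ratio within 2-fold, Igtp and the genes at the limits were added after values were seen. The comparison, lists and rule were chosen with earlier results of these data known. Promoters and coordinates are from RefSeq (GRCm38.p6), and those of chromosome 18 genes are not reported here. In the alternatives, the pseudocount, threshold, filter, scaling and choice of transcript were changed.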

Additional observations from a re-analysis of the deposited data

Results flagged for a closer look

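In Maff and Mxd4, the CD8+ pair and all 3 Treg pairs lay on opposite sides of 0 for the same contrast of IL-2 at 90 min with unstimulated cells. Only named genes were searched for this. Among genes expressed in Tregs, 4 of the 276 higher and 4 of the 399 lower genes had the opposite sign in all 3 pairs. Over all genes expressed in both, 13.4% lay below 0 in all 3 Treg pairs and 17.0% above 0. Maff, which encodes a small MAF protein, had a log2 ratio of -1.23 in CD8+ T cells and of 0.43, 3.11 and 0.54 in the Treg pairs. With 5 RPKM added, the CD8+ ratio of Maff was -0.75. Mxd4, which encodes a MAX partner, had 1.27 in CD8+ T cells and -0.95, -0.40 and -0.11 in the Treg pairs. The difference was not tested, since the CD8+ pair has no replicate. The first Treg pair holds the unstimulated library that stands apart from its group, and both genes keep opposite signs over the other pairs.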

How the results depend on the processing

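With 1 library per group, no count below has a replicate check, and none of the 13 alternatives stands in for one. The counts of higher and lower genes (282 and 444) moved by over 1.5 times to 461 and 750 with a pseudocount of 0.1 RPKM, to 109 and 141 with a pseudocount of 5 RPKM, to 22 and 27 at a threshold of 2, and to 1045 and 1485 at a 1.5-fold threshold. The lower count was 264 with a minimum mean RPKM of 5, where fewer genes are compared. Among the scaling alternatives, median centring gave 311 higher and 397 lower genes, and length bins 299 and 372. TMM gave 356 and 523, and DESeq2 size factors 365 and 501. These last values were scaled to reads on the compared genes and not to all mapped reads. They are thus larger than RPKM and the added 1 weighs less, so these counts do not show the effect of scaling alone. Of 130 named genes past 2-fold, 77 stayed past it and 0 changed sign under the 8 alternatives that change a gene's ratio (pseudocounts, scaling, transcript), and the pseudocount of 5 RPKM lost the most (49). At a minimum mean RPKM of 5, 32 of the 130 were not compared. The median over same-group Treg pairs fell to 65 genes at a threshold of 2. No paired analysis was possible because each CD8+ group has 1 library and no test was run. Values of a few reads are limited by depth.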
